A study of Homo sapiens with 2 samples.

Results

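Genes for axon guidance cues and their receptors were compared between HARA, an established human line of squamous cell lung cancer, and HARA-B4, a subline of HARA that metastasises strongly to bone. The set was chosen by symbol alone: every probe set of the array annotated to 1 gene symbol that names an Eph receptor, an ephrin, a semaphorin, a plexin, NRP1, NRP2, a Robo, a Slit, NTN1, NTN4, an UNC5 receptor, NEO1 or DCC. It held 70 genes, among them 3 antisense RNAs named after Eph genes, of 19775 named genes, and was measured by 175 of 54675 probe sets. Total RNA of each line, both grown in RPMI medium with serum and antibiotics, was hybridised to 1 Affymetrix array. There were no replicates, so every value below compares 2 arrays, has no p-value and carries no estimate of the spread between cultures.

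Eph receptors are receptor tyrosine kinases whose ligands, the ephrins, sit on the surface of neighbouring cells. Ephrin-A proteins are held by a lipid anchor and ephrin-B proteins cross the membrane, and signals run into both the receptor cell and the ligand cell. Semaphorins act through plexins, the secreted class 3 members with neuropilins as coreceptors. Slits act through Robo receptors, and netrins through DCC, neogenin and the UNC5 family. Besides axons, these pairs are known for cell repulsion, epithelial sorting, vessel growth and tumour cell movement.

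The genes that separated the lines most were a receptor pair and a group of ligands. EPHA3 and EPHA5 were well above background in HARA and at background in HARA-B4. The 3 class 3 semaphorins that could be measured, SEMA3A, SEMA3C and SEMA3F, were all lower in HARA-B4. The ligand EFNB2 and the receptors PLXND1, UNC5B and EPHA4 were higher in HARA-B4. The stretches of 250 bases before the start sites of 5 of these genes are shown because their base composition can be set beside the direction of the difference. They are from RefSeq (GRCh38.p14), each before the outermost start listed for the gene, 5' to 3' on the gene's own strand, with CG dinucleotides in capitals. EPHA3 lies at chr3:89107371-89107620 on the plus strand, EPHA5 at chr4:65670490-65670739 on the minus strand, SEMA3F at chr3:50154808-50155057 on the plus strand, EFNB2 at chr13:106535663-106535912 on the minus strand and PLXND1 at chr3:129606677-129606926 on the minus strand.
EPHA3: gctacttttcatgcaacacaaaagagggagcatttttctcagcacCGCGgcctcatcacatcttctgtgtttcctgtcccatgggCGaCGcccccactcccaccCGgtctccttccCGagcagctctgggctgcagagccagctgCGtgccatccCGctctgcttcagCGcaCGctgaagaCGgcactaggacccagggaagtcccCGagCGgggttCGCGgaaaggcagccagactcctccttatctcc
EPHA5: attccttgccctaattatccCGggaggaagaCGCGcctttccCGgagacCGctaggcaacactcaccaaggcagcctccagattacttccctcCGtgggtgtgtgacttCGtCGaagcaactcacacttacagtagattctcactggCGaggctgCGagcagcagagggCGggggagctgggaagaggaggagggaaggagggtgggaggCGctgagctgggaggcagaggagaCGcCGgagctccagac
SEMA3F: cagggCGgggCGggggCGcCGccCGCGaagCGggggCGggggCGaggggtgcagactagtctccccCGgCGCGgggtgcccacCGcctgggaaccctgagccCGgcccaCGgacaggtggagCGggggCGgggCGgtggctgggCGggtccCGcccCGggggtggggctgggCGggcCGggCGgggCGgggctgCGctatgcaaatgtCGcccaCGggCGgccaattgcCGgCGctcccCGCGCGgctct
EFNB2: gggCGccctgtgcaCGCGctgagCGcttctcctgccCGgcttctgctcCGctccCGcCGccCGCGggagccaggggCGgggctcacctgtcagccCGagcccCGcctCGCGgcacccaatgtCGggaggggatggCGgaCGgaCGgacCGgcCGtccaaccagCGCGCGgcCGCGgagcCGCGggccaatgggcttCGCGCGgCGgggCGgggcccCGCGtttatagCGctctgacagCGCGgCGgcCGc
PLXND1: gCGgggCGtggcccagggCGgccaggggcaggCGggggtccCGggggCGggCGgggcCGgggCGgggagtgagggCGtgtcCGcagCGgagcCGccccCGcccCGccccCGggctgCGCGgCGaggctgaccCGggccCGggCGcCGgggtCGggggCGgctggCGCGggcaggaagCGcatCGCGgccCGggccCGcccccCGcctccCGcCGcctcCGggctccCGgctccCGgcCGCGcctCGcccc

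The EPHA3 stretch held 15 CG dinucleotides and the EPHA5 stretch 14. The lower gene SEMA3F had 34, and the higher genes EFNB2 and PLXND1 had 40 and 41, so a dense stretch was found on both sides of the difference. By the same rule of the outermost start, 2 called genes whose stretches are not printed had few: the higher gene EPHA4 had 9 and the lower gene SEMA3C had 2. The count also depends on the start: other listed starts gave 23 for EPHA5, 30 for EPHA4, 39 for SEMA3C, and 42 and 2 for SEMA3F. Over 92 listed promoters of 61 guidance genes the median was 17 CG dinucleotides, against 11 over all 35116 listed promoters, which include those of noncoding genes. Motifs were searched on both strands, and each start position was counted, overlapping matches included. The letters GGGCGG, the core of the GC box bound by Sp1-type factors, were in 68.5% of the guidance promoters and 42.6% of all. There were 0 matches in the EPHA3 stretch, 1 in EPHA5, 3 in EFNB2, 9 in PLXND1 and 12 in SEMA3F. The letters TATAAA were in 3.26% of guidance promoters and 10.7% of all. The EFNB2 match, 30 bases before the start, is on the opposite strand and reads TTTATA in the printed stretch. The letters CAGGTG, an E-box form, were in 15.2% and 17.5%, with 1 match each in EFNB2 and SEMA3F. The letters CACGTG were in 4.35% and 6.34%, and TGANTCA in 2.17% and 6.57%. With any base at N, TGANTCA takes in the AP-1 site and other sequences. Neither CACGTG nor TGANTCA was in the 5 stretches. Methylation and factor binding were not measured.

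The values are probe set signals on a linear scale. A signal counted as above background when it passed 27.1, the 95th percentile over both arrays of 165 probe sets for olfactory, taste and vomeronasal receptor genes. The arrays were alike in their overall level, with median signals of 17.3 and 16.2 in HARA and HARA-B4. The labelled tissue was checked on squamous markers: all 10 that were measured were above background in both lines, with KRT5 at 4723 and 4504 and KRT14 at 3938 and 7345. Markers of other cell types that carry guidance genes were mostly at background. Of 10 endothelial markers 2 were above background in each line (summed signal 137 and 151). PECAM1 had 50.6 and 50.4, FLT1 had 27.7 and 20.5, and EGFL7 had 23.0 and 52.9, while CDH5, VWF and KDR were at background in both. Of 9 fibroblast markers 2 were above in each line (summed signal 301 and 372), and COL1A2, COL3A1, DCN and PDGFRB were at background in both. Of 8 blood markers 2 were above in HARA and 3 in HARA-B4 (summed signal 152 and 146), with PTPRC at background in both. CD79A had 63.4 and 55.2, HBB had 35.7 and 33.9, and ITGAM had 21.2 and 28.6. Of 3 Schwann cell markers MBP alone was above (summed signal 42.0 and 90.4), with SOX10 at background in both. Of 12 neuronal and neuroendocrine markers 5 were above in HARA and 6 in HARA-B4, with a summed signal of 7372 and 5510 that came mainly from NEFL (4998 and 2577) and TUBB3 (2193 and 2547). SYP, CHGA and STMN2 were at background in both lines. In a bulk sample, fewer cells with a transcript and less transcript in each cell cannot be told apart.

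Each gene was represented by its probe set of highest mean log2 signal. A difference is HARA-B4 minus HARA on the log2 scale, and 2-fold is a difference of at least 1 in size. Where a gene was above background in 1 line only, the other line was set to the background level and the fold is a lower bound. Of the 70 guidance genes, 26 were above background in both lines, 8 in HARA only and 8 in HARA-B4 only, and 28 were at background in both. Over all 19775 genes these counts were 10207, 695, 594 and 8279. Of the 42 above background in at least 1 line, 9 (21.4%) differed by at least 2-fold, against 7.82% of the 11496 genes so measured over the whole array. HARA-B4 was the higher line for 4 (9.52%), against 3.62% of all genes, and the lower line for 5 (11.9%), against 4.20%. The 16 genes above background in 1 line only had to differ, so these shares describe the genes that could be measured and not the whole set. The median difference of the 26 genes measured in both lines was 0.04, against 0.02 for the 10207 genes so measured over the whole array. With 14 above 0 and 12 below it, the guidance genes did not lean one way as a set. With background set at the 99th percentile of the receptor probe sets, 19 guidance genes were measured, of which 1 was higher and 3 were lower (21.1% called, against 5.55% of 8108 genes), and EPHA4, PLXND1, UNC5B, SEMA3A and EPHA5-AS1 were not called.

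**Figure D1:**
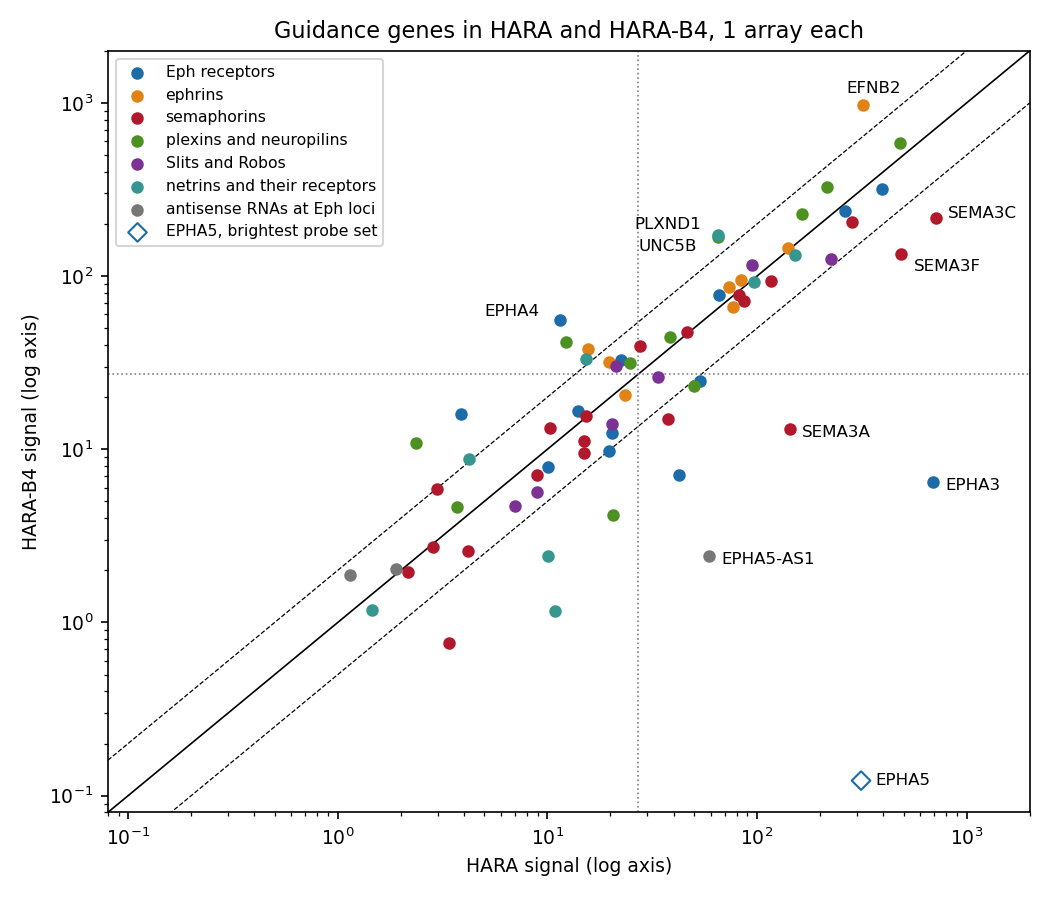
Signal of each guidance gene in HARA (horizontal axis) and HARA-B4 (vertical axis), both on log axes, 1 point for each gene by its representative probe set and coloured by family, with an open diamond for the brightest probe set of EPHA5. The solid line marks equal signals, the dashed lines 2-fold and the dotted lines the background of 27.1. EPHA3, SEMA3A and EPHA5-AS1 sit under the horizontal dotted line while above background in HARA, and EFNB2, PLXND1 and UNC5B lie above the upper dashed line.

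Of 13 Eph receptors, 3 were above background in both lines, 3 in HARA only, 2 in HARA-B4 only and 5 in neither on their representative probe set. EPHA2, a receptor typical of epithelial tumours, gave 396 in HARA and 318 in HARA-B4 (difference -0.31). EPHB4, the receptor best known as a partner of ephrin-B2, had 263 and 237 (-0.15), and EPHB3 had 66.2 and 77.3 (0.22). Each of these 3, the receptors measured in both lines, differed by less than 1.5-fold. EPHA6, EPHA10, EPHB1 and EPHB6 were at background in both lines on every probe set.

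EPHA3, a receptor of ephrin-A ligands, gave 688 in HARA and 6.51 in HARA-B4 on probe set 206070_s_at, at least 25.3-fold lower. A second probe set, 206071_s_at, gave 54.6 and 1.25, at least 2.01-fold lower. The third, 211164_at, was at background in both lines, with 2.46 and 2.77. Both probe sets that detected EPHA3 in HARA thus placed HARA-B4 at background. EPHA3 was not called when its 3 probe sets were averaged. Both names of the detecting probe sets end in _s_at, a suffix for probe sets that match several transcripts, as do both of SEMA3C.

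EPHA5, a related ephrin-A receptor of the nervous system, gave 314 in HARA and 0.122 in HARA-B4 on probe set 237939_at, at least 11.6-fold lower. Probe set 215664_s_at gave 103 and 0.446, at least 3.80-fold lower. The probe set with the highest mean over both lines was the third, 216837_at, at background in both with 20.4 and 12.4, so EPHA5 is not among the 5 lower genes counted above. With each gene represented by its probe set brightest in either line, a choice made after seeing the data, 43 guidance genes were measured. Of these 6 were lower and 4 higher, 23.3% in either direction, against 8.14% of all genes (4.40% lower and 3.74% higher). The antisense RNA EPHA5-AS1 gave 59.0 in HARA and 2.42 in HARA-B4, at least 2.18-fold lower, on its only probe set, 238241_at. Its RefSeq start lies on the opposite strand of chromosome 4, 528 bases inside the outermost EPHA5 start and 473 bases upstream of a second one. Probe sets annotated to the sense gene and to the antisense gene of this locus were thus above background in HARA and not in HARA-B4. The probe letters were not used here, so the strand each probe set reads was not checked and rests on the annotated gene.

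EPHA1 and EPHA7 were also above background in HARA only, with smaller bounds. EPHA1, an epithelial receptor, had 53.5 and 24.8, a bound of 1.97-fold that fell just short of the threshold. EPHA7 had 42.5 and 7.15 on its brightest probe set, a bound of 1.57-fold, and its other 3 probe sets were at background in both lines. EPHA4, which binds ligands of both the A and the B class, gave 11.4 in HARA and 55.9 in HARA-B4 on probe set 227449_at, at least 2.06-fold higher and just past the threshold. Its other 4 probe sets were at background in both lines, so the call rests on 1 probe set. EPHA8 was near background, with 22.4 and 32.7.

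**Figure D2:**
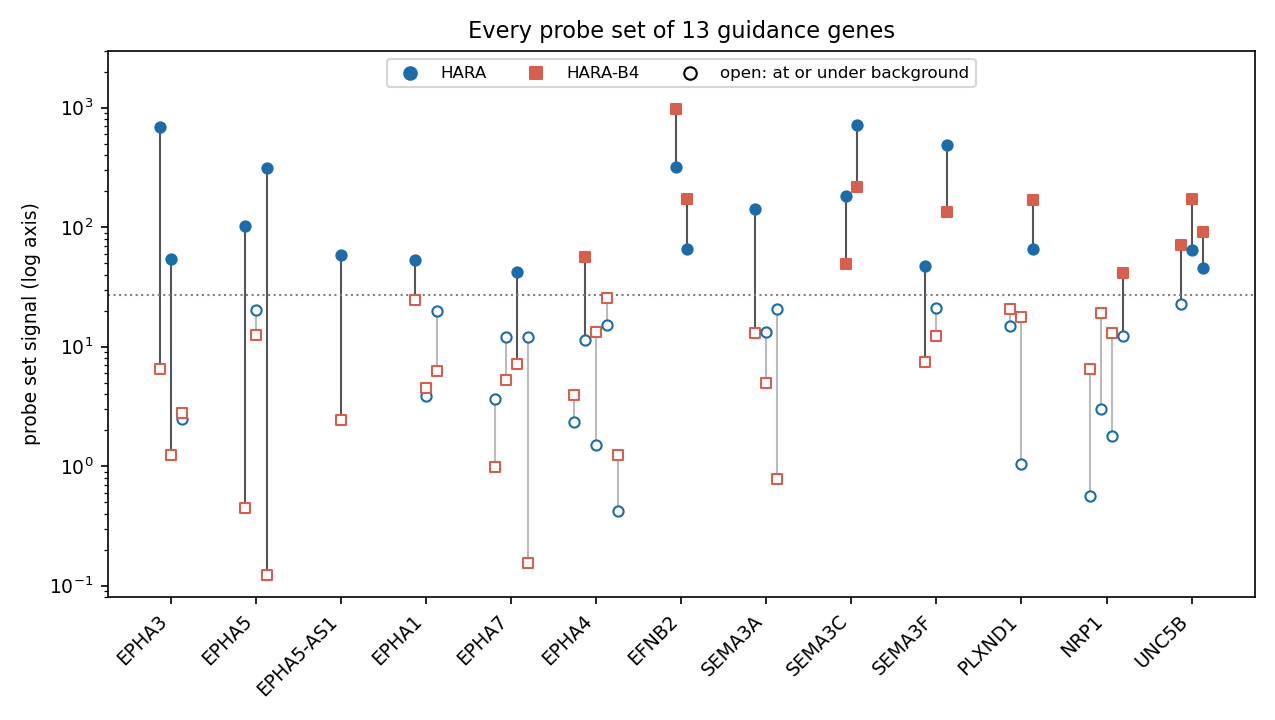
Signal of every probe set of 13 guidance genes in HARA (blue circles) and HARA-B4 (red squares) on a log axis, with a line joining the 2 values of a probe set and a dotted line at the background of 27.1. Open symbols are at or under background. Both detected probe sets of EPHA3 and of EPHA5 drop under the dotted line in HARA-B4, and both of EFNB2 and of SEMA3C move the same way.

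Of 8 ephrins, 7 were above background in at least 1 line, and EFNB2 was the one at 2-fold (14.3%, against 7.82% of all genes). Ephrin-B2 is a transmembrane ligand of EphB receptors and of EphA4, known from arterial vessels. Its probe set 202668_at gave 319 in HARA and 970.3 in HARA-B4, 3.04-fold higher (difference 1.60). A second probe set, 202669_s_at, gave 65.3 and 171 (1.38), so both placed HARA-B4 above HARA by more than 2-fold. EFNB2 kept its call under all 14 alternative settings of background, scaling, probe set, pseudocount and fold. EFNB1, the related ligand on the X chromosome, had 15.6 and 37.9, above background in HARA-B4 only and with a bound of 1.40-fold. EFNB3 had 141 and 146 (0.05).

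The ephrin-A ligands changed little. EFNA1 had 73.5 and 86.5 (0.23), EFNA4 had 76.7 and 66.6 (-0.20), and EFNA5 had 83.9 and 94.7 (0.17). EFNA3 was just above background in HARA-B4 only, at 31.9 against 19.7, and EFNA2 was at background in both lines. The 3 ephrin-A ligands measured in both lines thus differed by -0.20 to 0.23, while the ephrin-A receptors EPHA3 and EPHA5 were above background in HARA only. Of the receptors in the set that bind ephrin-B2, those above background were EPHB4 and EPHB3, which differed by -0.15 and 0.22, and EPHA4, above background in HARA-B4 only. The EphB receptors in the set were EPHB1, EPHB3, EPHB4 and EPHB6. EPHB2 had no probe set among them, so its level was not examined.

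Of 20 semaphorins, 10 were above background in at least 1 line. Of these 3 were lower in HARA-B4 by at least 2-fold (30%, against 4.20% of all genes) and 0 higher (against 3.62%). All 3 are secreted class 3 semaphorins, which signal through neuropilins and plexins. SEMA3C, known to promote migration in some tumours, had 711 in HARA and 216 in HARA-B4 on probe set 203789_s_at (-1.72), and 182 and 49.6 on 203788_s_at (-1.88). SEMA3F, a ligand that prefers NRP2 and is known as a candidate tumour suppressor of the short arm of chromosome 3, had 487 and 134 on probe set 35666_at (-1.86). A second probe set of SEMA3F, 206832_s_at, had 47.7 and 7.39, a bound of 1.76-fold, and the third was at background in both lines. SEMA3A, the classic collapsing cue that binds NRP1, had 143 and 13.1 on probe set 206805_at, at least 5.28-fold lower, with its other 2 probe sets at background in both lines. SEMA3B, SEMA3D, SEMA3E and SEMA3G were at background in both lines.

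No membrane-bound semaphorin reached 2-fold. All 5 class 4 members above background were so in both lines, with differences from -0.48 to 0.04. SEMA4B had 284 and 204 (-0.48), SEMA4C had 117 and 94.3 (-0.31), SEMA4F had 86.6 and 71.7 (-0.27), SEMA4A had 82.3 and 77.8 (-0.08), and SEMA4D, the ligand of plexin-B1 known to restrain osteoblasts, had 46.3 and 47.5 (0.04). SEMA6B had 27.8 and 39.4 (0.50). SEMA5B was above background in HARA only, at 37.6 against 15.0, a bound of 1.39-fold. SEMA5A, SEMA6A, SEMA6C, SEMA6D, SEMA4G and SEMA7A were at background in both lines.

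Plexins and neuropilins, the receptors of semaphorins, had mostly positive differences. All 5 above background in both lines had positive differences on their representative probe set, from 0.20 to 1.37. Over the whole array 5323 of the 10207 genes so measured had positive differences. Of 8 above background in at least 1 line, PLXND1 was the 1 at 2-fold (12.5%, against 7.82% of all genes). PLXND1, a receptor of endothelium that binds SEMA3E and, with neuropilins, other class 3 semaphorins, gave 65.1 in HARA and 168 in HARA-B4, 2.58-fold higher (1.37), on probe set 38671_at. Its other 2 probe sets were at background in both lines. PLXNB2 had 216 and 326 (0.59), PLXNA2 had 164 and 229 (0.48) and PLXNA1 had 479.5 and 587 (0.29). A second probe set of PLXNA1, however, had 115 and 67.9 (-0.76), so its sign depends on the probe set. PLXNC1 went the other way, at 50.0 in HARA and 23.1 in HARA-B4, a bound of 1.84-fold, while another of its probe sets had 22.2 and 31.2. PLXNA3 was near background, with 24.9 and 31.3, and PLXNA4, PLXNB1 and PLXNB3 were at background in both lines.

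NRP1, the coreceptor of SEMA3A and of vascular growth factors, had 12.3 in HARA and 41.6 in HARA-B4, above background in HARA-B4 only and with a bound of 1.53-fold. Its other 3 probe sets were at background in both lines. NRP2 was measured by 11 probe sets. Its representative had 38.5 and 44.4 (0.20), and 2 others above background in both lines gave 0.66 and 0.70. Probe sets 222877_at, with 10.7 and 34.5, and 214632_at, with 23.6 and 32.3, were above background in HARA-B4 only. Their bounds were 1.27-fold and 1.19-fold, and the rest were at background in both lines. Set beside their receptors, then, the 3 measured class 3 ligands were lower in HARA-B4, while PLXND1 was higher. NRP1 was above background in HARA-B4 only, and NRP2 differed by less than 2-fold on its representative probe set. Levels of ligands and receptors were not compared with each other, since signals of different probe sets share no scale.

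**Figure D3:**
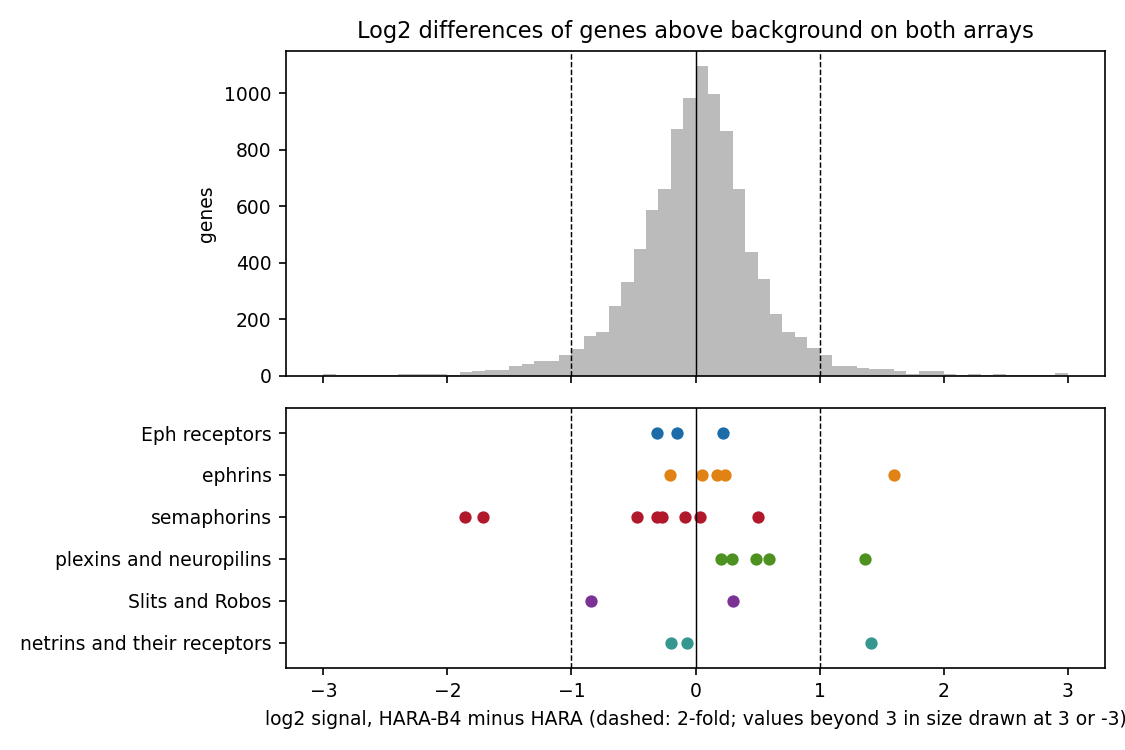
Upper panel, number of genes by log2 difference (HARA-B4 minus HARA) for the 10207 genes above background on both arrays; lower panel, the 26 guidance genes so measured, by family. Dashed lines mark 2-fold. SEMA3C and SEMA3F lie left of the lower limit, EFNB2, PLXND1 and UNC5B lie right of the upper one, and all 5 plexins and neuropilins are right of 0.

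Slits and Robos, a secreted cue and its receptors, had no member at 2-fold among 4 above background in at least 1 line (against 7.82% of all genes). ROBO1 had 225 in HARA and 125 in HARA-B4 (-0.84), and SLIT3 had 94.3 and 116 (0.30), with a second probe set at 0.12. SLIT1 passed background in HARA only, with 33.9 against 26.0, and ROBO3 in HARA-B4 only, at 30.2 against 21.3. SLIT2, ROBO2 and ROBO4, the last an endothelial receptor, were at background in both lines.

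Among netrins and their receptors, 4 were above background in at least 1 line and UNC5B was the one at 2-fold (25%, against 7.82% of all genes). UNC5B is a netrin receptor of the repulsive kind, known from vessels and as a dependence receptor that can trigger cell death without ligand. It had 65.0 in HARA and 173 in HARA-B4, 2.66-fold higher (1.41), on probe set 226899_at. Probe set 41856_at gave 45.2 and 91.5 (1.02), and 213100_at gave 22.8 and 71.3, at least 2.63-fold higher, so all 3 probe sets passed 2-fold. The ligand NTN4, a basement membrane netrin, had 151 and 132 (-0.20), and neogenin (NEO1) had 96.9 and 92.2 (-0.07). NTN1, the main ligand of UNC5 receptors, was above background in HARA-B4 only, at 33.2 against 15.3, a bound of 1.22-fold. DCC, UNC5A, UNC5C and UNC5D were at background in both lines.

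Where a gene had several probe sets, they gave the only repeat measurement here, a technical one. In 14 guidance genes with at least 2 probe sets above background in both lines, probe sets of the same gene varied with an SD of 0.27 on the log2 scale, against 0.30 in 4830 genes of the whole array. All probe sets had 1 sign in 10 of the 14. The exceptions were EFNA5, EPHB4, PLXNA1 and SEMA4A, of which PLXNA1 had the widest range, from -0.76 to 0.29. None of the guidance genes past 2-fold in both lines changed sign between such probe sets, but PLXND1 and SEMA3F had only 1 probe set above background in both.

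For 15 guidance genes that were at or near 2-fold, the value was set beside those of chromosomal neighbours, the nearest 10 genes on each side in RefSeq order that were above background in both lines. Over the whole array 4884 of the 10207 genes so measured were below 0. Around SEMA3A the median difference of the 20 neighbours was -0.68, with 19 of 20 below 0, and around SEMA3C it was -0.66, also with 19 of 20 below 0. SEMA3C and SEMA3A lie on chromosome 7 with 2 other measured genes between them, so the stretches overlap. Both semaphorins were lower than their neighbours' median, at -1.72 and at most -2.40. Around SEMA3F on chromosome 3 the median was -0.52, with 16 of 20 below 0, and around EPHA1 on chromosome 7 it was -0.54, with 18 of 20 below 0. Lower neighbours thus moved with these 4 genes, and their part in the differences was not tested.

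SEMA3A, SEMA3C and SEMA3F lay below the lowest of their neighbours, which were at -1.72, -1.36 and -1.41. The lowest neighbour of SEMA3A was SEMA3C, and SEMA3A, above background in HARA only, could not be a neighbour of SEMA3C. The bound of EPHA1, -0.98, was not as low as its lowest neighbour, at -1.12, and a bound cannot place the gene inside the range. EPHA3 and EPHA5 also lay outside the range of theirs. Genes above background in 1 line only could not be neighbours, and the members were picked for their differences. A place outside the range was therefore partly set by these choices. Around EPHA3 the median was -0.24, with 17 of 20 below 0 1 of them at least 2-fold lower and 1 at least 2-fold higher, beside the bound of -4.66 for EPHA3 itself. ROBO1 is among those neighbours, and its own surroundings had a median of -0.25 with 18 of 20 below 0. Around EPHA5 the neighbours had a median of 0.09 and a range from -0.64 to 0.40, beside a bound of -3.53. For the higher genes the medians were 0.01 around EFNB2, -0.06 around PLXND1, 0.19 around UNC5B and 0.14 around EPHA4. PLXND1, UNC5B and EPHA4 lay above the highest of their neighbours, which were at 0.75, 0.88 and 0.89, and EFNB2 did not. The 2 neighbours of EFNB2 past 2-fold, at 3.25 and 2.51, were the collagen genes COL4A1 and COL4A2.

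**Figure D4:**
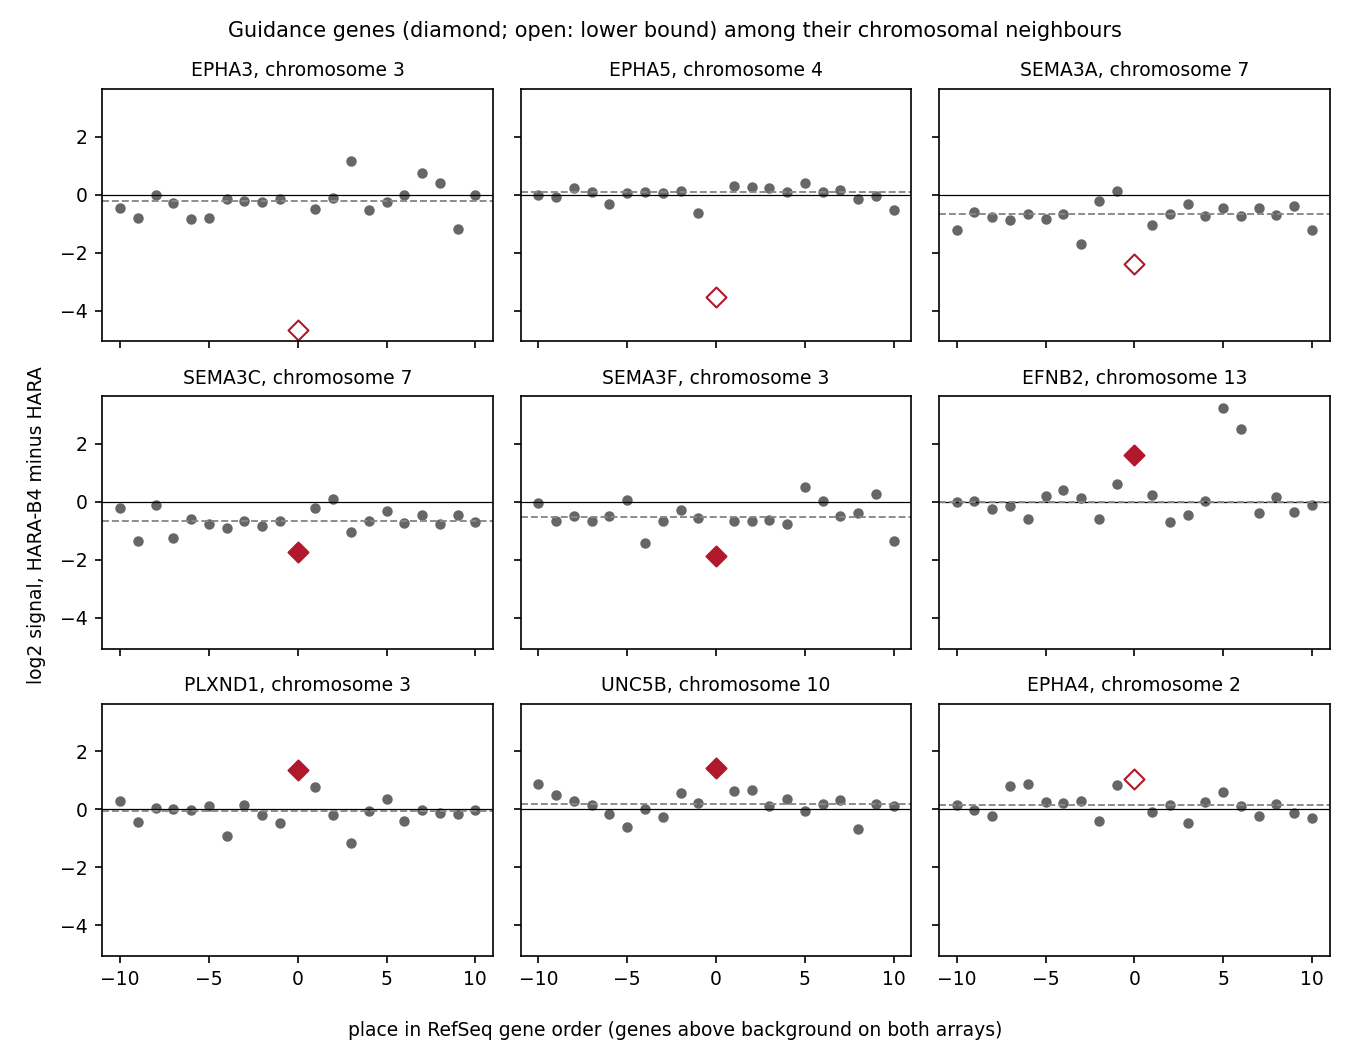
Log2 difference (HARA-B4 minus HARA) of 9 guidance genes (diamonds at place 0, open where 1 line is at background and the value is a bound) and of the 10 nearest measured genes on each side (grey points), with the neighbours' median as a dashed line. The dashed line lies at -0.68, -0.66 and -0.52 around SEMA3A, SEMA3C and SEMA3F, and at 0.09 and 0.01 around EPHA5 and EFNB2.

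Proteins known to act with these receptors were taken from lists of general knowledge, and the counts of each are set beside the shares of all genes, 3.62% higher and 4.20% lower. Of 31 measured partners of Eph receptors and ephrins, 2 were higher (6.45%) and 28 neither, and 1 was lower (3.23%). The median difference was 0.22, against 0.02 for all genes. Both higher genes are exchange factors that switch on Rac: VAV3, with 35.3 in HARA and 249 in HARA-B4 (2.81), and TIAM1, with 53.2 and 282 (2.41). Another probe set of VAV3 went from 4.90 to 92.7, at least 3.42-fold. The lower one was SIPA1L1, a regulator of Rap, with 68.2 and 33.2 (-1.04) on one probe set and -0.66 on another. The protease ADAM10, which sheds ephrins, had 1631 and 1049 (-0.64).

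Of 30 measured partners of plexins and neuropilins, 3 were higher (10%, against 3.62% of all genes) and 22 neither, and 5 were lower (16.7%, against 4.20%). The median difference was 0.08. Among the lower ones were vascular growth factors that also bind neuropilins. VEGFA had 345 and 58.3 (-2.56), with other probe sets at -1.38 and -0.62, and VEGFC had 835 and 187 (-2.16). The related factors VEGFB and PGF were not called, with 38.8 and 74.3 (0.94) and with 279 and 267 (-0.06). MST1R and MET, related receptor kinases that can associate with plexins, had differences of -1.41 and -1.24, and MET had another probe set at -0.73. MST1R lies among the lower neighbours of SEMA3F. The kinase FES was above background in HARA only, at 81.0 against 1.27, at least 2.99-fold lower. The higher ones were FARP1, an exchange factor, at least 3.64-fold with 17.6 and 98.9, LIMK2, a kinase of the actin-severing protein cofilin, with 190 and 453 (1.26), and the GTPase RAP1A, with 689 and 1467 (1.09) and 0.95 on another probe set.

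Of 23 measured partners of Slits and Robos, 0 were higher (against 3.62% of all genes), 3 were lower (13.0%, against 4.20%) and the median difference was 0.09. These were NELL2, a secreted ligand of ROBO3, with 301 and 131 (-1.20), the Ras exchange factor SOS2, with 281 and 126 (-1.16) and -0.71 on another probe set, and FLRT3, a membrane protein that binds Robos and UNC5 receptors, with 66.3 and 32.8 (-1.02). Of 15 measured partners of netrin receptors, 2 were higher (13.3%, against 3.62% of all genes), 0 were lower (against 4.20%) and the median difference was 0.17. FLRT3, described above, was listed with the Slit and Robo partners only. FLRT2, a ligand of UNC5 receptors, had 283 and 949 (1.75), and 0.89 on its least different probe set. DAPK1, a kinase that acts below UNC5B in cell death, was above background in HARA-B4 only, at 68.1 against 18.2, at least 2.51-fold. The other 13 measured netrin partners were not called. Of the UNC5B ligands, FLRT2 was thus higher in HARA-B4 and FLRT3 lower, and NTN1 and NTN4 were not called.

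**Figure D5:**
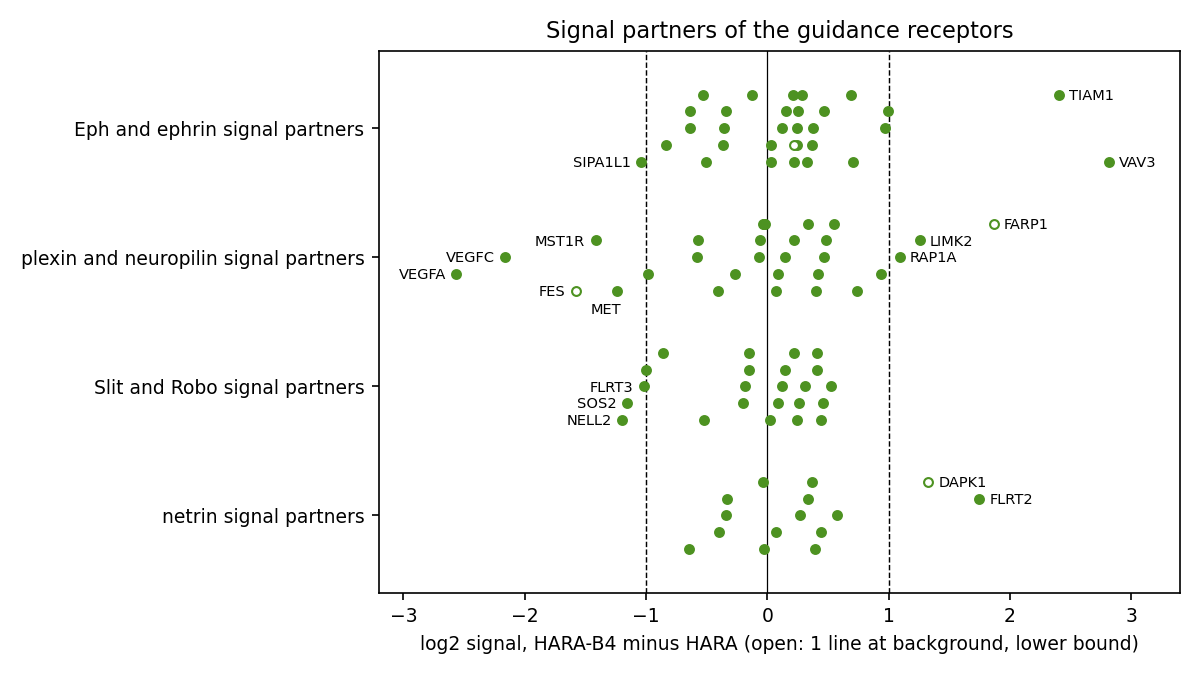
Log2 difference (HARA-B4 minus HARA) of the measured signal partners of each receptor family, 1 point for each gene, open where 1 line is at background and the value is a bound. Dashed lines mark 2-fold and the genes beyond them are named. VEGFA and VEGFC lie farthest to the left, VAV3 and TIAM1 farthest to the right.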

How the data were processed

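The authors deposited 1 intensity (signal) for each probe set and line, on a linear scale. Affymetrix Expression Console made them, per the submitters' processing notes; for its version, algorithm and scaling the sources used here give nothing. No scaling was added, and log2 was taken of each value. Probe sets were named from the platform annotation, which gave 1 symbol to 41097 of them, several to 1801 and none to 11777; 41043 of the first were matched by Entrez ID to RefSeq (GRCh38.p14), as were all 70 guidance genes. Background, the 2-fold rule and the lower bounds are defined in the text. With 1 array for each line no test was run. Python 3.11.15, pandas 2.3.3 and statsmodels 0.14.6 were used. The code for the calls was run on simulated data, with large changes in genes far above background in HARA. That run does not cover genes near background or differences close to 2-fold. The number of arrays limits the precision.

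Genes are named where any probe set was at 2-fold or where they were among the 3 brightest of their family; the other members measured in both lines and some near background are given as well. In each partner list up to 4 members at 2-fold were named, the rest of those at 2-fold after their values were seen. Alternatives were the median, quantile and lowess scaling, other background levels, other choices of probe set, log2(signal + 16) and folds of 1.5 and 3. The members, lists and alternatives were chosen with earlier results of these data known. RefSeq order served only to find neighbours, and promoter coordinates are those of the RefSeq table.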

Additional observations from a re-analysis of the deposited data

How the results depend on the processing

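No paired analysis was possible because each line has 1 array. The 4 higher and 5 lower guidance genes kept those counts under the 3 scaling alternatives. The higher count was 1 with the background at the 99th percentile of the receptor probe sets, 2 with the mean of all probe sets and 1 at a fold of 3. The lower count was 8 with the background at the 90th percentile and 3 at the 99th, 3 once probe sets named _x_at or _s_at were left out, and 9 at a fold of 1.5. Removal of those probe sets takes out both detecting probe sets of EPHA3 and both of SEMA3C. Without them 20.6% of measured guidance genes were called in either direction, against 7.96% of all genes. The shares were 27.7% against 8.52% at the 90th percentile and 21.1% against 5.55% at the 99th. They were 20% against 7.47% with the mean of all probe sets. At a fold of 1.5 they were 35.7% against 21.3%, and at a fold of 3 they were 11.9% against 2.57%. The median difference stayed within 0.30 of its value of 0.04 under each alternative run. Of 14 alternatives, the call was kept in 14 for EFNB2, 13 for SEMA3C and SEMA3F, 12 for EPHA3, SEMA3A and UNC5B, 11 for PLXND1, 10 for EPHA5-AS1 and 9 for EPHA4. EPHA1 was called in 3 of them, one being a background from receptor genes without pseudogenes, chosen after seeing the data. EPHA5, not among the 5 lower genes, was likewise called in only 3 of the 14. These were the mean of all probe sets, the added pseudocount and the probe set brightest in either line. The last of these was also chosen after seeing the data. In the partner lists, the lower count for Eph receptors and ephrins was 0 with quantile normalization, 0 with background 1 log2 unit higher and 0 without those probe sets. With the background raised, the lower count for plexins and neuropilins was 3 and the higher count for netrin receptors 1. The cause of these shifts was not tested. A background of 27.1 bounds every fold of a gene seen in 1 line only.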

Other observations

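Over the whole array, 2 genes had a representative probe set at background in both lines while another probe set was past 2-fold, and both were lower in HARA-B4. EPHA5 was 1 of them, and the one with 2 such probe sets.

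Among the marker genes outside the guidance set, MAP2, a microtubule protein of neurons, gave 40.2 in HARA and 239.7 in HARA-B4 (difference 2.57), and a second probe set went from 4.20 to 39.9. The 3 fibroblast markers above background in either line did not go one way: FAP had 1.76 in HARA and 155 in HARA-B4, at least 5.70-fold higher, THY1 had 63.8 and 23.8, at least 2.35-fold lower, and COL1A1 had 185 and 139.9 (-0.40).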
